A study of Mus musculus with 16 samples.

Results

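Restraint stress of the dam was compared with no stress over all 16 libraries of the study, 8 from stressed dams (PS) and 8 from non-stressed dams (NS). The libraries were taken by their treatment label, so they are all of the series, and whether the dam had received the insecticide alpha-cypermethrin entered the model as a term. No gene differed between stressed and non-stressed dams past the threshold. Of 13224 genes tested with edgeR's quasi-likelihood test, 0 (0%) had a Benjamini-Hochberg adjusted p under 0.05, and the smallest adjusted p was 0.985. The genes that came nearest, led by Pisd-ps3, Fibcd1 and Exosc5 on the higher side and Ica1, Tbp and Snhg11 on the lower, and the genes by which cells usually answer stress hormones are described here with their values and intervals.

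The libraries came from GAD67-GFP+/- embryos of CD1 dams at embryonic day 14.5. The reporter marks cells that express Gad1, the gene of the GABA-synthesising enzyme GAD67, and the embryos of all groups carry it in the heterozygous state. About 100 GFP-positive cells at the front of the migrating stream were cut by laser from the cortical plate in each of 10 fixed sections of 10 µm, about 1000 cells per embryo, and 1 embryo labelled male was used per litter. The PS libraries comprise 4 from dams stressed and given corn oil, the vehicle, and 4 from dams stressed and given cypermethrin at 10 mg/kg. The NS libraries comprise 4 with vehicle and 4 with cypermethrin, and all dams were gavaged on each of gestational days 11 to 14. Stressed dams were restrained under bright light in 3 sessions of 45 min on days 12 and 13, and a last session on day 14 ended 15 min before euthanasia, which was 90 min after the last gavage. Each level below is therefore a measurement taken shortly after an acute episode that followed repeated ones, in cells of the embryo and not of the stressed animal.

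Maternal restraint activates the hypothalamic-pituitary-adrenal axis, which releases glucocorticoids. These steroids bind the glucocorticoid receptor, which moves to the nucleus and acts on genes such as Fkbp5, Tsc22d3 and Per1, while the placental and fetal enzyme encoded by Hsd11b2 inactivates the hormone on its way to the embryo. Cortical interneurons arise in the ganglionic eminences and migrate tangentially into the cortex, guided by receptors such as those encoded by Cxcr4 and Erbb4 and under transcription factors of the Dlx, Lhx6 and Sox6 genes.

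Total counts ran from 2410165 to 4324129 in PS libraries (median 3744616) and from 2291283 to 4091668 in NS libraries (median 3695782), with a difference of means of 127876 (exact permutation p = 0.698, two-sided, labels permuted within vehicle and within cypermethrin, n = 8 each). Genes detected numbered 12153 to 16536 in PS and 13158 to 15756 in NS libraries (exact permutation p = 0.870). Libraries of the same stress group correlated with a median r of 0.857 over log2 levels (56 pairs), beside 0.854 for pairs of different stress groups (64 pairs). Libraries are numbered 1 to 4 within a group, as in vehicle PS 1. The library labelled vehicle PS 1 had 9521 counts of Xist, the RNA of the inactive X chromosome, and 1 count over the Y-linked genes examined, which goes against its male label. No other library exceeded 8.14 CPM (counts scaled to a common library size) of Xist. That library and cypermethrin NS libraries 3 and 4 were each the farthest library on 1 of the first 3 principal components. Cypermethrin PS 1 was the farthest on component 4 and was not left out with them. Vehicle PS 1 and cypermethrin NS 3 and 4 are called the 3 libraries that stand apart. Values without them or without vehicle PS 1 stand beside part of the list counts and differences. Values given alone can move as well. The interneuron genes Gad1, Gad2, Lhx6 and Sst were counted in all 16 libraries. So were Tbr1 and Neurod6 of glutamatergic neurons, Reln of Cajal-Retzius cells, the fibroblast gene Col3a1 and the endothelial gene Cdh5. Median levels over all libraries were 62.2 CPM for Gad1, 261 for Gad2, 291 for Lhx6 and 188 for Sst. They were higher for Tbr1 (851 CPM), Neurod6 (1242), Reln (2308) and Col3a1 (450), while Cdh5 had 71.9 CPM. The cells that this RNA came from were not determined. The ganglionic progenitor gene Nkx2-1 was at 0 in 11 of the 16 libraries. In such bulk samples fewer cells of a type and less RNA per cell cannot be told apart.

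The shape of the comparison was symmetric. At an unadjusted p under 0.05 there were 621 genes by edgeR (4.7% of those tested), 296 (2.24%) higher and 325 (2.46%) lower in PS than in NS libraries. DESeq2 also called 0 and had 814 at that level, and limma voom with quality weights called 0 and had 743. The median log2 difference over all genes was -0.00084 and the median standard error 0.38, or 0.19 in the 3306 genes with the highest levels. The 95% interval of the difference lay wholly within a 2-fold change for 6012 genes (45.5%), and for 3169 of those 3306 (95.9%). Of the other 9918 genes 28.7% had such an interval, so the comparison was less precise for low genes. No gene had all 8 PS libraries above all 8 NS libraries or all 8 below (0 of 13224 each way, 0%). In 11 genes 7 of the 8 PS libraries lay above every NS library, among them Fam134a, and in 3 genes 7 of 8 lay below, among them Spata46.

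Pisd-ps3 had the smallest p of all genes. RefSeq lists it as a transcribed pseudogene, a copy related to Pisd, the mitochondrial phosphatidylserine decarboxylase gene. Its level ran from 32.3 to 167 CPM in PS libraries (median 68.3) and from 14.8 to 69.9 CPM in NS libraries (median 30.3). The highest PS value was in the library labelled vehicle PS 1, 4 PS libraries lay above every NS library, and the groups overlapped. The log2 difference was 1.27 ± 0.29 (SE, n = 8 each), with a 95% interval of 0.68 to 1.87, an unadjusted p of 0.000156 and an adjusted p of 0.985 by edgeR. It was 1.26 in vehicle dams and 1.29 in cypermethrin dams, sets that share no library. Within codes a and b of the library descriptions (their meaning is not given) it was 1.65 and 1.14. Pisd-ps3 and the other leading genes were chosen by their p over all these libraries, which favours a like sign in each part. Reads of near-identical copies can be split between them, and the related genes had differences of -0.32 ± 0.39 (Pisd), 0.23 ± 0.37 (Pisd-ps1) and -0.14 ± 0.59 (Pisd-ps2). Counts of each copy are uncertain for that reason.

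Fam134a had a narrow range of NS levels. It is an older symbol of Retreg2, whose product belongs to a family of reticulon-like proteins of the endoplasmic reticulum that act in its autophagic turnover. Levels ran from 49.0 to 113 CPM in PS libraries (median 65.8) and from 35.0 to 49.1 CPM in NS libraries (median 44.0). The lowest PS library, again the one labelled vehicle PS 1, was within the NS range, and the other 7 were above it. The log2 difference was 0.70 ± 0.22 (unadjusted p = 0.00318, adjusted p = 0.985 by edgeR), with 0.76 in vehicle dams and 0.65 in cypermethrin dams.

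Fibcd1 and Exosc5 had larger fitted differences at low levels. Fibcd1 (chromosome 2, 31813290 to 31846005, GENCODE vM21 on mm10), which encodes a membrane receptor for acetylated groups, had 2.24 to 37.1 CPM in PS libraries (median 4.69) and 0 to 3.70 CPM in NS libraries (median 1.00). Its log2 difference was 2.92 ± 0.75 (unadjusted p = 0.000544, adjusted p = 0.985 by edgeR), and 6 PS libraries were above all NS libraries. Exosc5 (chromosome 7, 25659164 to 25671368), a subunit of the RNA exosome that degrades and trims RNA, had 3.31 to 42.3 CPM in PS libraries (median 9.59) and 0 to 5.05 CPM in NS libraries (median 2.30). Its log2 difference was 2.39 ± 0.67, and 6 PS libraries were again above the NS range. Exosc5 lies over Tmem91, and since the use of strand in counting is not given, reads of both cannot be told apart.

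The other leading genes on the higher side have varied roles. Btbd7 (chromosome 12, 102780797 to 102878471), a BTB domain gene, had 30.9 to 235 CPM in PS libraries (median 123) and 35.1 to 98.6 CPM in NS libraries (median 64.9), a log2 difference of 0.91 ± 0.28. Its lowest library overall was a PS library, the one labelled vehicle PS 1, while 5 PS libraries exceeded every NS library. Rad18, a ubiquitin ligase gene of DNA damage tolerance, differed by 1.16 ± 0.36 with medians of 39.0 CPM in PS and 19.7 CPM in NS libraries. Mgat4b, which branches N-linked glycans, differed by 1.17 ± 0.35 (median 37.8 CPM in PS, 20.6 in NS). It is followed by Pcdhb17, a clustered protocadherin on chromosome 18 with many similar neighbours (1.19 ± 0.37), and Rassf2, a Ras association domain gene (1.04 ± 0.33). Stk32b, a protein kinase gene, had the smallest difference of the 12, 0.52 ± 0.17, at 185 to 530 CPM in PS libraries and 105 to 286 CPM in NS libraries. Gdpd3, a lysophospholipase gene, had 89.5 CPM in cypermethrin PS 2, while no other PS library exceeded 11.8 CPM, against at most 4.01 CPM in NS libraries. Its difference of 2.84 ± 0.87 was 1.81 without that library.

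Dock2, a Rac activator known from blood cells, had 0.578 to 10.7 CPM in PS libraries (median 5.53) and 0 to 2.83 CPM in NS libraries (median 0.287), a log2 difference of 2.81 ± 0.88. The 16 tested markers of microglia and macrophages were fitted higher for 9 and lower for 7, with a median log2 difference of 0.09. Without the 3 libraries that stand apart 12 were higher and 4 lower, with a median of 0.34 and 3 at an unadjusted p under 0.05. The summed level of that list ran from 214 to 338 CPM in PS libraries and from 83.2 to 779 CPM in NS libraries, and 1 of its 17 members, Cd163, averaged under 1 CPM. The part of such cells in the Dock2 value was not tested. The highest PS value was in the library labelled vehicle PS 1 for 6 of the 12 leading higher genes. Without it the differences were 1.13 for Pisd-ps3, 1.91 for Exosc5, 0.98 for Rad18, 0.87 for Pcdhb17 and 0.41 for Stk32b. Without it and cypermethrin NS libraries 3 and 4 that of Fibcd1 was 2.15 and those of Pisd-ps3 and Fam134a were 1.28 and 0.74, while that of Pcdhb17 was 0.62 and that of Stk32b 0.31.

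**Figure D1:**
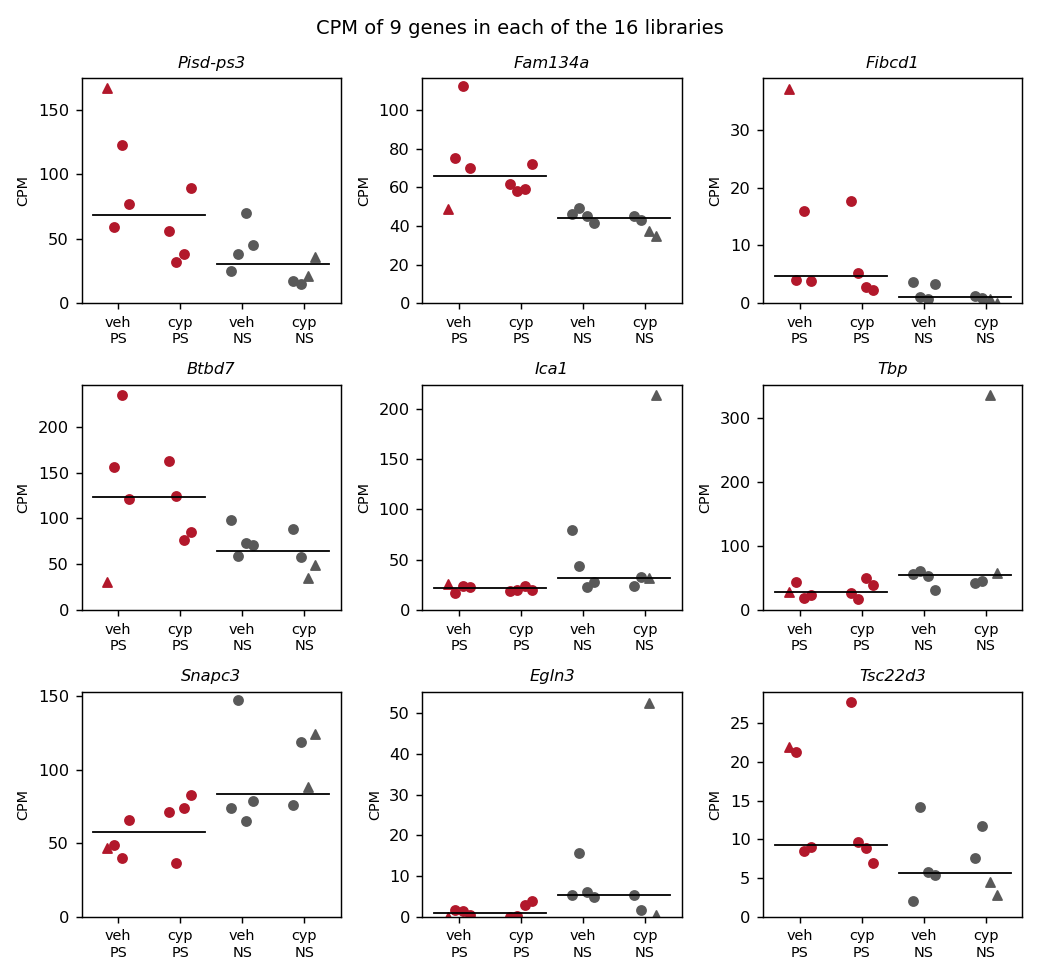
CPM of 9 genes in each library (vertical axis, linear from 0), with stressed libraries (red) to the left of non-stressed ones (grey) and vehicle (veh) beside cypermethrin (cyp). Horizontal lines are the medians of the 8 PS and 8 NS libraries, and triangles mark the library labelled vehicle PS 1 and cypermethrin NS libraries 3 and 4. For Ica1, Tbp and Egln3 a single NS library stands far above the rest.

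On the lower side the values leaned on single NS libraries. Ica1 (chromosome 6, 8630527 to 8778488), a gene of a secretory vesicle protein, had 16.6 to 26.2 CPM in PS libraries (median 21.3) and 22.7 to 213 CPM in NS libraries (median 32.0). PS libraries were tightly grouped, 5 of them below every NS library, while cypermethrin NS 4 alone held the 213 CPM. The log2 difference was -1.41 ± 0.40 (unadjusted p = 0.00137, adjusted p = 0.985 by edgeR), and -0.75 without that library. Tbp (chromosome 17, 15499888 to 15528379), the TATA-binding protein of basal transcription, had 17.8 to 50.3 CPM in PS libraries (median 27.3) and 31.9 to 336 CPM in NS libraries (median 54.2). Its difference of -1.35 ± 0.38 was -0.69 without cypermethrin NS 3, the library at 336 CPM, and Tbp overlaps Pdcd2.

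Snapc3 and Snhg11 rested less on 1 library. Snapc3 (chromosome 4, 83417724 to 83467676) encodes a subunit of the complex that activates transcription of small nuclear RNA genes. It had 36.7 to 83.0 CPM in PS libraries (median 57.3) and 65.1 to 147 CPM in NS libraries (median 83.4). The log2 difference was -0.74 ± 0.23, with -0.86 in vehicle dams and -0.62 in cypermethrin dams. For Snhg11, a host gene of small nucleolar RNAs, the range was 32.4 to 122 CPM in PS libraries (median 54.1) and 52.4 to 204 CPM in NS libraries (median 123), with a difference of -0.997 ± 0.283, which was -0.61 without the 3 libraries that stand apart. In both genes 4 PS libraries lay below every NS library. Snapc3 overlaps Psip1.

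Egln3 (chromosome 12, 54178981 to 54203860), a prolyl hydroxylase that marks hypoxia-inducible factors for destruction, had 0 to 3.99 CPM in PS libraries (median 0.948) and 0.467 to 52.6 CPM in NS libraries (median 5.34). Its difference of -3.09 ± 0.89 was -1.92 without cypermethrin NS 3. Cpeb1, a regulator of translation of stored mRNA, had at most 6.36 CPM in PS libraries, while cypermethrin NS libraries 4 and 3 had 75.7 and 35.1 CPM and no other NS library exceeded 4.04 CPM. These libraries also held the highest NS values of Chst11, a chondroitin sulfotransferase gene (-1.49 ± 0.43), and library 3 those of Dnajc25, a J-domain co-chaperone gene (-1.84 ± 0.56, and -1.01 without it), Esf1, a nucleolar gene of ribosomal RNA processing (-1.10 ± 0.34, and -0.72), and Mier1, a corepressor gene (-0.78 ± 0.25). Lrr1, a leucine-rich repeat gene, was at 0 in 4 PS libraries and 1 NS library. Spata46, known from sperm, was at 0 in 6 PS libraries and in no NS library, with a fitted difference of -4.00 ± 1.23, and it overlaps Nos1ap. With 1 library left out that of Spata46 ran from -6.48 to -3.20. Of the 12 leading lower genes 9 had their highest NS value in cypermethrin NS 3 or 4. Without these and the library labelled vehicle PS 1 the differences were -0.76 for Cpeb1, -0.71 for Chst11 and -0.29 for Mier1.

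The question of whether stress acts alike in vehicle and cypermethrin dams bears on what an average over dams means. These sets share no library. Across genes the vehicle and the cypermethrin stress differences correlated with Pearson's r of 0.0263 and Spearman's rho of 0.0162 over 13224 genes, which are not independent, and 50.7% had the same sign. In the 3306 genes with the highest levels r was 0.0426. The median standard error of a difference was 0.54 in each set. At that precision an r near 0 cannot tell like small effects from unlike ones. By edgeR 0 genes were called in vehicle dams (672 at an unadjusted p under 0.05, 5.08%), 0 in cypermethrin dams (570, 4.31%) and 0 for the interaction (622, 4.7%). At that level 423 of the 672 (62.9%) were higher in PS than NS vehicle libraries, and 201 of the 570 (35.3%) in cypermethrin libraries. These shares moved with the fit. Over the alternative fits they ran from 54.4% to 66.9% in vehicle dams and from 31.7% to 49.2% in cypermethrin dams. The values of 54.4% and 49.2% came with limma voom and quality weights. Without vehicle PS 1 the share in vehicle dams was 54.6%.

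**Figure D2:**
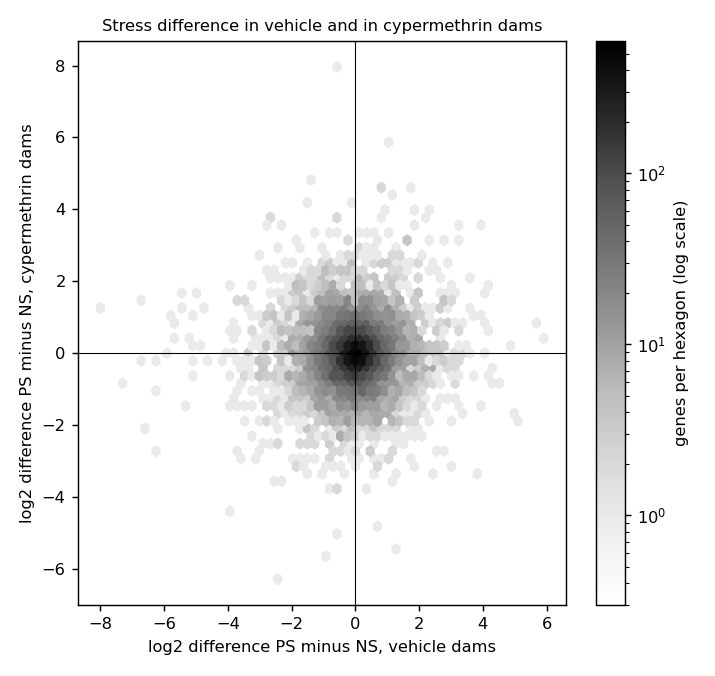
Log2 difference of stressed minus non-stressed libraries in vehicle dams (horizontal) and in cypermethrin dams (vertical) for 13224 genes, shaded by the number of genes per hexagon on a log scale. The cloud is round, with r of 0.0263 and 50.7% of genes at the same sign in both sets.

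Both sets of dams reached an unadjusted p under 0.05 for 18 genes, 2.68% of those in vehicle dams and 3.16% of those in cypermethrin dams. These shares are below the 4.31% of all genes at that level in cypermethrin dams and the 5.08% in vehicle dams. Of the 18 genes 11 went the same way. Pisd-ps3, Fam134a, Fibcd1, Exosc5 and Btbd7 were higher in PS libraries in both. Egln3, Lrr1, Dnajc25, Agps, Rbmx and the clone 4930447A16Rik were lower in both. Rbmx, an X-linked RNA-binding protein gene of splicing, had 219.9 to 343 CPM in PS libraries (median 295) and 307 to 507 CPM in NS libraries (median 377), a difference of -0.41 ± 0.13. Agps, of ether lipid synthesis, had 46.1 to 117 CPM in PS libraries (median 87.3) and 72.0 to 208 CPM in NS libraries (median 131), a difference of -0.68 ± 0.22. The differences without the 3 libraries that stand apart were -0.40 for Rbmx and -0.38 for Agps.

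Genes that glucocorticoids act on were split in direction. Of 26 tested members of a list of 35, 11 were fitted higher and 15 lower, 0 were called and 1, Tsc22d3, had an unadjusted p under 0.05, beside 4.7% of all genes. The median log2 difference was -0.06, against -0.00084 over all genes, and leaving out the library labelled vehicle PS 1 gave 14 higher and 12 lower with a median of 0.03. In that fit 0 members had an unadjusted p under 0.05. The count was also 0 without the 3 libraries that stand apart and with upper-quartile scaling. Tsc22d3 (chromosome X, 140539528 to 140600659), which encodes the glucocorticoid-induced leucine zipper, had 6.98 to 27.7 CPM in PS libraries (median 9.32) and 2.02 to 14.2 CPM in NS libraries (median 5.60). Vehicle PS libraries 1 and 2 and cypermethrin PS 1 exceeded every NS library, while the other 5 PS libraries lay within the NS range. Its difference was 1.06 ± 0.52 with a 95% interval of 0.00 to 2.12 (unadjusted p = 0.0498, adjusted p = 0.985 by edgeR). Per1, a clock gene with glucocorticoid response elements, had 9.22 to 48.1 CPM in PS libraries (median 18.7) and 8.02 to 26.0 CPM in NS libraries (median 15.1), a difference of 0.54 ± 0.39.

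Fkbp5, the co-chaperone that dampens the receptor, had overlapping levels, with 15.0 to 48.0 CPM in PS libraries (median 37.4) and 16.8 to 47.2 CPM in NS libraries (median 38.4). Its difference was -0.08 ± 0.30, with a 95% interval of -0.70 to 0.53, which lies within a 2-fold change. The receptor gene itself, Nr3c1 (chromosome 18, 39410545 to 39519421), had 7.84 to 91.3 CPM in PS libraries (median 16.9) and 10.7 to 51.5 CPM in NS libraries (median 24.04). The 91.3 CPM belonged to the library labelled vehicle PS 1, and the difference of -0.06 ± 0.46 was -0.68 without it. Zbtb16 (-0.25 ± 0.37), Klf9 (-0.11 ± 0.87) and Ddit4 (0.35 ± 0.35), all known targets, had intervals that held 0. Hsd11b2 had 0 to 4.24 CPM in PS libraries and 0 to 10.7 CPM in NS libraries. Hsd11b1, which regenerates the active hormone, was at 0 in 6 PS libraries and all 8 NS libraries. Both were below the count filter and untested.

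**Figure D3:**
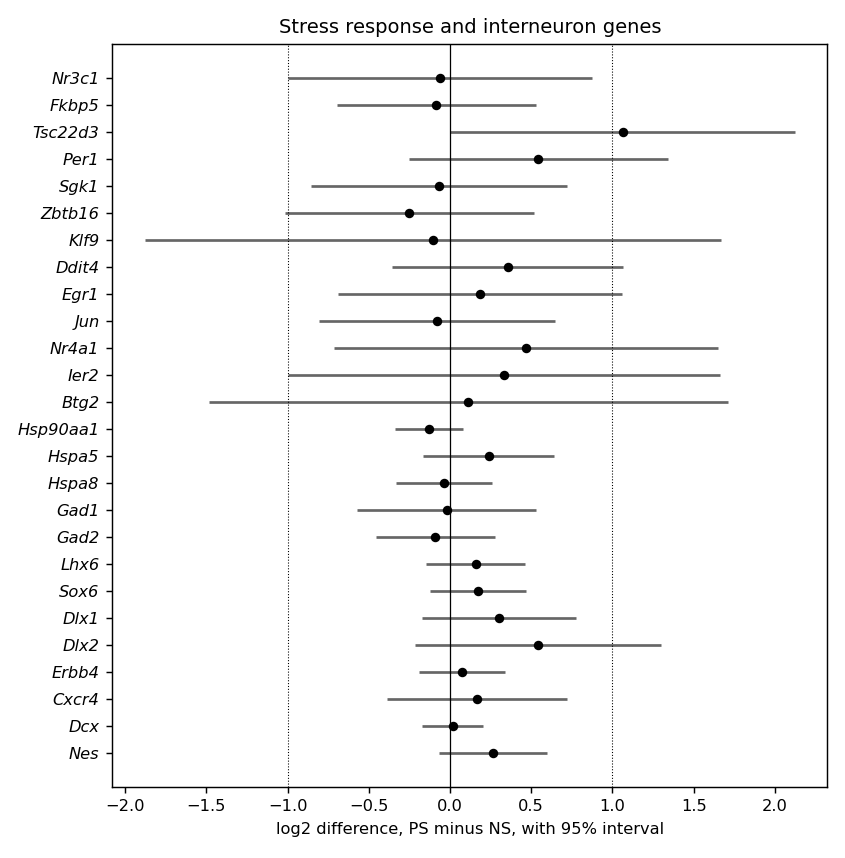
Log2 difference of stressed minus non-stressed libraries (horizontal) for 26 genes, as a point with its 95% interval. Dotted lines mark 2-fold changes, and every interval but that of Tsc22d3, whose lower end is at 0.00, includes 0.

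Immediate early genes are transcribed within minutes of a signal and were of interest since restraint ended 15 min before euthanasia. Of 23 tested of 35 listed, 15 were fitted higher and 8 lower (median 0.11), 0 were called and 0 had an unadjusted p under 0.05, or 1 without the 3 libraries that stand apart. Egr1 had 10.5 to 82.1 CPM in PS libraries (median 38.9) and 15.1 to 112 CPM in NS libraries (median 25.2), a difference of 0.19 ± 0.43, which was 1.06 without the 3 libraries that stand apart. In vehicle dams it was 1.01 and in cypermethrin dams -0.63, with an interaction p of 0.0451 before adjustment (adjusted p = 0.985 by edgeR, 4.7% of all genes at an unadjusted p under 0.05). Jun (-0.08 ± 0.35), Nr4a1 (0.47 ± 0.58), Ier2 (0.33 ± 0.65) and Btg2 (0.11 ± 0.78) had wide intervals. Without the 3 libraries that stand apart their differences were -0.17, 0.86, 0.99 and 0.09. Fos was at 0 in 3 PS and 5 NS libraries and reached 8.25 CPM in 1 PS library, against 1.51 CPM at most in NS libraries, and Arc was at 0 in 5 PS and all 8 NS libraries. Junb had at most 3.06 CPM in PS and 3.03 CPM in NS libraries. At these levels Fos, Junb and Arc were too low to test.

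Hormone and neuronal activity act through short DNA elements, and the windows of 1 gene with each kind of element are shown from RefSeq (GRCm38.p6, the assembly of mm10). Sgk1, a kinase gene with several start sites, has in the window chr10:21993640-21993939 (plus strand) the glucocorticoid receptor palindrome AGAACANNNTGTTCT, in capitals. Btg2, an antiproliferative early gene, has in chr1:134079106-134079405 (minus strand) the CREB element TGACGTCA, in capitals. Each window runs from 250 bases before to 50 after a start.
Sgk1: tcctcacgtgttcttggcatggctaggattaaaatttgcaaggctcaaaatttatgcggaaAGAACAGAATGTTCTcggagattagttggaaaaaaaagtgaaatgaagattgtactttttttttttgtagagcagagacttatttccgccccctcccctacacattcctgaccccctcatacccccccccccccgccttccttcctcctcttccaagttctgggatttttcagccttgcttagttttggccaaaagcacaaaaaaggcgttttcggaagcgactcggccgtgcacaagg
Btg2: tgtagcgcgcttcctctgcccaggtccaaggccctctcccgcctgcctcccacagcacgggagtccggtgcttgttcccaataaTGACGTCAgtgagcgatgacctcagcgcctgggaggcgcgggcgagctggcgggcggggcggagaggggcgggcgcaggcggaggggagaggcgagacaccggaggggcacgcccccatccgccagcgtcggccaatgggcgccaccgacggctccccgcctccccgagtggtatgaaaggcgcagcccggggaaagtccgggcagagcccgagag
Over both strands of the windows of 27025 genes, the palindrome was found for 3 (0.0111%), of which only Sgk1 was tested, and the CREB element for 549 (2.03%). Sgk1 had 12.2 to 44.2 CPM in PS libraries (median 29.0) and 6.91 to 65.4 CPM in NS libraries (median 25.2), with a difference of -0.07 ± 0.39 and a 95% interval of -0.86 to 0.72. Btg2 had 0 to 15.8 CPM in PS libraries (median 5.67) and 0.673 to 12.4 CPM in NS libraries (median 4.67). The 372 tested genes with a CREB element had a median difference of 0.01, 0 called and 18 at an unadjusted p under 0.05 (4.84%, beside 4.7% of all genes). The heat shock element TTCNNGAANNTTC was found for 179 genes (0.662%), and its 64 tested genes had a median of 0.00. The CArG box of serum response factor was found for 488 genes (1.81%), with 154 tested and a median of 0.02. The single site AGAACA, which the palindrome also contains, was found for 5750 genes (21.3%), with 1521 tested and a median of 0.00.

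The integrated stress response, which misfolded proteins can set off, halts and later restores translation. Its genes were listed together with those of endoplasmic reticulum stress. Of 27 tested members 18 were fitted higher and 9 lower (median 0.13), 0 were called, and 3 had an unadjusted p under 0.05, a level that 4.7% of all genes reached. Leaving out the 3 libraries that stand apart gave 16 higher and 11 lower (median 0.07), with 2 at that level. Ppp1r15a (GADD34), which recruits the phosphatase that restores translation, had 4.42 to 25.2 CPM in PS libraries (median 7.45) and 0 to 9.34 CPM in NS libraries (median 2.89). The 3 highest PS libraries, all with vehicle, lay above the NS range. Its difference was 1.80 ± 0.68 (unadjusted p = 0.0130, adjusted p = 0.985 by edgeR), with 2.01 in vehicle and 1.58 in cypermethrin dams, and it overlaps Tulp2. Dnajb9, a co-chaperone gene of the endoplasmic reticulum, and Sesn2, a sestrin, had -0.92 ± 0.39 and -2.49 ± 1.05. The value of Dnajb9 was -0.38 without cypermethrin NS 3 and -0.32 without the 3 libraries that stand apart, where that of Sesn2 was -1.91. Hspa5, the main chaperone of that compartment, was at 94.3 to 208 CPM in PS and 71.2 to 149.8 CPM in NS libraries, a difference of 0.24 ± 0.20.

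Heat shock genes encode chaperones and the factors that induce them. Of 22 tested, 12 were fitted higher and 10 lower (median 0.04), 0 were called, and 14 had an interval within 2-fold. Hsp90aa1, a partner of the glucocorticoid receptor, had 458 to 733 CPM in PS libraries (median 598) and 504 to 759 CPM in NS libraries (median 655), and its 95% interval ran from -0.34 to 0.08. Hspa8 had -0.04 ± 0.14. Hsf2, a heat shock transcription factor gene, had 25.7 to 112 CPM in PS libraries (median 86.7) and 75.8 to 328 CPM in NS libraries (median 112), with 3 PS libraries below every NS library and a difference of -0.76 ± 0.26 (unadjusted p = 0.00702, adjusted p = 0.985 by edgeR). That difference was -0.23 without the 3 libraries that stand apart and -0.14 with limma voom and quality weights. Oxidative defence genes (18 tested, 9 higher and 9 lower, median -0.03) and hypoxia and glycolysis genes (24 tested, 11 higher and 13 lower, median -0.04, or 12 and 12 with a median of 0.02 without the 3 libraries that stand apart) were split in direction. Inflammation and interferon genes had 11 of 18 fitted higher (median 0.13), led by Isg15 at 1.83 ± 1.04 with at most 7.61 CPM in PS and 2.83 CPM in NS libraries, and at 1.20 without the 3 libraries that stand apart. All 3 of these lists had 0 called.

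Receptors and enzymes of stress hormones and monoamines were mostly too low, with 9 of 33 tested, 4 fitted higher and 5 lower (median -0.05) and 0 called. With upper-quartile scaling 5 were fitted higher and 4 lower, as they were without the 3 libraries that stand apart (median 0.21).

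**Figure D4:**
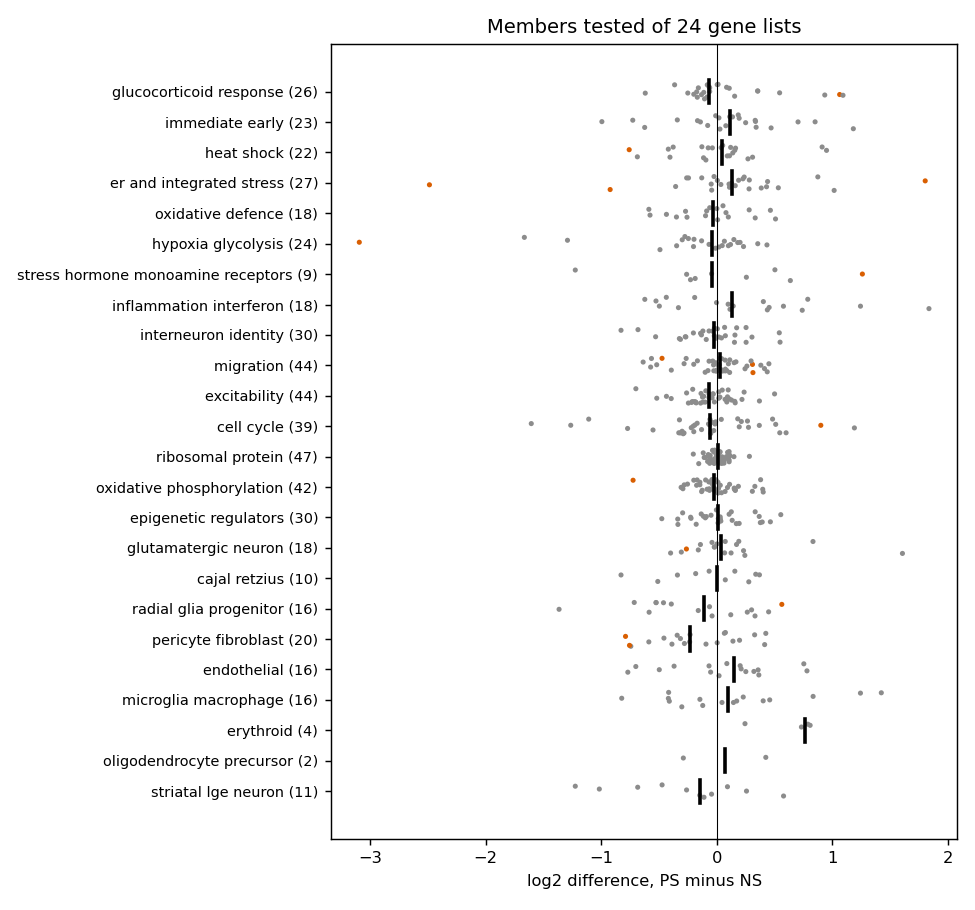
Log2 difference of stressed minus non-stressed libraries (horizontal) for each tested member of 24 gene lists, with the number tested in brackets. Black bars are list medians and orange points have an unadjusted p under 0.05. Ribosomal protein genes lie within -0.20 to 0.28, and no point passes after adjustment.

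Interneuron identity genes were split in direction as well. Of 30 tested, 13 were fitted higher and 17 lower (median -0.02), 0 were called, 0 had an unadjusted p under 0.05, and 21 had an interval within 2-fold. Without the 3 libraries that stand apart 18 were higher and 12 lower, with a median of 0.14 and 4 at an unadjusted p under 0.05, and without vehicle PS 1 alone 16 were higher and 14 lower, with 2 at that level. Upper-quartile scaling gave 15 each way. Gad2 had 146 to 341 CPM in PS libraries (median 265) and 198 to 456 CPM in NS libraries (median 257), a difference of -0.09 ± 0.18. Gad1, the gene that the reporter follows, had -0.02 ± 0.27. Lhx6, which specifies interneurons of the medial eminence, had 202 to 347 CPM in PS libraries (median 290) and 172 to 335 CPM in NS libraries (median 294), a difference of 0.16 ± 0.15. Without the 3 libraries that stand apart the differences were 0.25 for Gad2, 0.040 for Gad1 and 0.32 for Lhx6. Sox6 (0.17 ± 0.14), Dlx1 (0.30 ± 0.23) and Dlx2 (0.54 ± 0.37) had intervals that included 0. Dcx, the microtubule protein of migrating neurons, had the narrowest interval of the individually chosen genes, -0.17 to 0.20, at 3455 to 4913 CPM in PS and 3411 to 5050 CPM in NS libraries.

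Migration genes numbered 44 tested, with 26 fitted higher, 18 lower, a median of 0.02 and 0 called. Without the library labelled vehicle PS 1 there were 21 higher and 23 lower, with a median of -0.011. Tuba1a, the main tubulin of young neurons, had 5529 to 8884 CPM in PS libraries (median 6164) and 2818 to 6175 CPM in NS libraries (median 5499), a difference of 0.31 ± 0.12 (unadjusted p = 0.0146, adjusted p = 0.985 by edgeR). The highest PS value was in cypermethrin PS 1 and the lowest NS value in cypermethrin NS 4, and without the 3 libraries that stand apart the difference was 0.19. Pafah1b1, the Lis1 partner of dynein, had 0.31 ± 0.15, or 0.16 without those libraries, and the neuregulin gene Nrg3 had -0.47 ± 0.21. With limma voom and quality weights these 2 differences were 0.040 and -0.13. The receptor genes Erbb4 (0.07 ± 0.13) and Cxcr4 (0.17 ± 0.27) were near 0, the second with 0.68 in vehicle and -0.35 in cypermethrin dams. Of 44 excitability genes 28 were fitted lower (median -0.07), 0 had an unadjusted p under 0.05 and 37 had an interval within 2-fold. In the fit without the 3 libraries that stand apart 25 were lower and 4 were at that level.

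Cell cycle genes had 13 of 39 fitted higher and 26 lower (median -0.06), and without the library labelled vehicle PS 1 they had 20 higher and 19 lower. At an unadjusted p under 0.05 by edgeR there was 1 of the 39 over all libraries. Without that library there were 4 of the 39, beside 639 of all 13224 genes. Mcm4, of the replicative helicase, had 18.4 to 77.4 CPM in PS libraries (median 33.7) and 10.8 to 30.4 CPM in NS libraries (median 20.5), a difference of 0.90 ± 0.33. Oxidative phosphorylation genes had 18 of 42 fitted higher (median -0.03), with Ndufs3, a subunit of complex I, at -0.72 ± 0.29. The 47 tested ribosomal protein genes were the tightest, with 25 higher, 22 lower and all 47 intervals within 2-fold, and without the 3 libraries that stand apart 18 were higher and 29 lower (median -0.02). Of 30 epigenetic regulators 17 were fitted higher (median 0.01), but 12 without the library labelled vehicle PS 1 (median -0.07). None of these lists had a called member.

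Markers of the other cells that the laser could have cut were set beside these values. Glutamatergic markers (18 tested, 10 higher and 8 lower, median 0.03, or 9 and 9 with a median of -0.02 without vehicle PS 1) summed to 6001 to 9060 CPM in PS and 6234 to 8073 CPM in NS libraries. Among them Tbr1, of deep-layer neurons, had 738 to 1051 CPM in PS libraries (median 784) and 731 to 1304 CPM in NS libraries (median 1028), a difference of -0.26 ± 0.10 (unadjusted p = 0.0179, adjusted p = 0.985 by edgeR). Of 10 Cajal-Retzius markers 5 were fitted higher (median 0.00). Leaving out the 3 libraries that stand apart gave 8 higher and 2 lower, with a median of 0.24 and 2 at an unadjusted p under 0.05. Radial glia and progenitor markers (6 of 16 higher, median -0.11) summed to 1087 to 1433 CPM in PS and 1032 to 1465 CPM in NS libraries. Of these 16, 1 had an unadjusted p under 0.05 by edgeR. Without the 3 libraries that stand apart 7 were higher and 3 were at that level, beside 584 of all 13224 genes. Among these markers Ptn, the growth factor pleiotrophin, had 86.7 to 178 CPM in PS libraries (median 154) and 61.2 to 142 CPM in NS libraries (median 101), a difference of 0.56 ± 0.19 (unadjusted p = 0.00541, adjusted p = 0.985 by edgeR). The nestin gene Nes had 0.26 ± 0.16 over all dams, with 0.72 in vehicle and -0.19 in cypermethrin dams and an interaction p of 0.00280 before adjustment (adjusted p = 0.985 by edgeR).

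Pericyte and fibroblast markers had 8 of 20 fitted higher and 12 lower (median -0.23), and the median was 0.04 without the 3 libraries that stand apart. Lum, a proteoglycan gene of fibroblasts, had 48.0 to 121 CPM in PS libraries (median 88.6) and 38.7 to 371 CPM in NS libraries (median 118), a difference of -0.79 ± 0.27. It was -0.51 without cypermethrin NS 3 and -0.33 without the 3 libraries that stand apart. The summed levels of these 20 markers ran from 2028 to 3693 CPM in PS and from 1952 to 5467 CPM in NS libraries. Endothelial markers (10 of 16 higher, median 0.14, and 12 of 16 with a median of 0.24 without the 3 libraries that stand apart) summed to 332 to 646 CPM in PS and 221 to 1060 CPM in NS libraries. The 4 tested erythroid genes were all fitted higher (median 0.76), with Hbb-y, an embryonic globin, at 10.7 to 249 CPM in PS and 2.69 to 178 CPM in NS libraries. Without vehicle PS 1 there were 3 of 4 higher (median 0.36), with Slc4a1 at -0.27. Leaving out the 3 libraries that stand apart gave 4 of 4 higher (median 0.50). The adult globin genes Hbb-bs, Hbb-bt, Hba-a1 and Hba-a2 were at 0 in every library, as was the glycolysis gene Eno1. How reads that match more than 1 gene were counted is not given, so these zeros need not mean that the RNA was absent. Of 6 markers of oligodendrocyte precursors 2 were tested, Pdgfra (-0.29 ± 0.34) and Cspg4 (0.42 ± 0.80). Striatal markers had 3 of 11 higher (median -0.15), and the median was 0.07 without the library labelled vehicle PS 1 and -0.34 without the 3 libraries that stand apart. The part of these cells in the values above was not tested.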

How the data were processed

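The authors deposited whole-number read counts per gene symbol for 16 libraries (24539 genes, of which 18733 had a count), and alignment was with STAR 2.5 on mm10, per the submitters' processing notes. Which tool counted the reads, on which annotation, and whether strand was used are not stated in the labels or the table. Samples were grouped by their treatment label, and each replicate is an embryo of a separate litter.

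Genes were kept by filterByExpr over the 4 groups with a count minimum of 10, leaving 13224, scaled by TMM and fitted in edgeR 4.0.16 (R 4.3.3) with cypermethrin and stress as terms by the robust quasi-likelihood test. The threshold was a Benjamini-Hochberg adjusted p of 0.05 over all genes tested, and adjusted p-values in the text are from that fit. Each SE is the absolute log2 difference divided by the square root of the F statistic of the quasi-likelihood test. Intervals are 95%, are built from that SE and cover the spread between libraries. For genes at low levels the SE and the interval are approximate. CPM uses TMM-scaled library sizes, and log2 levels a prior count of 2. The contrasts within vehicle and within cypermethrin dams and the interaction came from a fit of 4 group means. DESeq2 1.42.0, limma voom (limma 3.58.1), other scalings and filters, a code in the library descriptions (a for 7 libraries, 4 PS and 3 NS, and b for 9, 4 PS and 5 NS, of unstated meaning) and leaving out libraries were alternatives. The fit was tested on simulated data.

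The comparison, the gene lists and the single genes were chosen with earlier results of these data known. Named genes are the 12 fitted higher and the 12 fitted lower with the smallest p, without sex-linked genes of a list and clones (1 and 2 passed over), a set of stress and interneuron genes, and the 2 members of each list with the smallest p, of which some are not reported here. Genes at a low p in both sets of dams, Sesn2, Pafah1b1 and the copies of Pisd were named after their values were seen. Positions are from GENCODE vM21, and promoter windows from RefSeq were read for 44 of 56 genes, with chromosome 18 left out.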

Additional observations from a re-analysis of the deposited data

Results flagged for a closer look

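Among the named genes, total counts and genes detected, 188 sets of 8 libraries of 1 stress group were examined. The search was for a library whose gap to the rest was large against the range of its group. In 26 of them 1 library stood apart, all for genes. Chance flags about 1 in 20, here 9.4, where values are independent and normally distributed. These genes are not independent and many were chosen by p, so 9.4 is not a fair measure of chance here. Values are log2 CPM with a prior count of 2. What lies behind these values was not tested.

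Cypermethrin NS 4 stood apart for 7 sets. It was low for Pcdhb17 (3.01), Stk32b (6.72), Tuba1a (11.46), Atp5h, an ATP synthase subunit (5.25), and Mfsd2a, a lipid transporter of brain endothelium (0.98). It was high for Gad1 (7.25) and the hexokinase gene Hk2 (5.33). Cypermethrin NS 3 stood apart for 6, low for Exosc5 (-0.82, with no count) and high for Tbp (8.39), Dnajc25 (7.60), Dnajb9 (7.32), the calcium channel subunit gene Cacna2d1 (9.25) and the endothelial receptor gene Tie1 (6.27).

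The library labelled vehicle PS 1 stood apart for 3. It was high for Nr3c1 (6.52) and the red cell gene Slc4a1 (6.38), and low for the autophagy receptor gene Sqstm1 (3.40). Cypermethrin PS 1 was low for Stat3 (2.60), Cdk6 (2.29) and Hbb-y (3.49) and high for Tuba1a (13.12).

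The remaining values are spread over other libraries. Vehicle PS 3 was high for Ddit4 (6.78) and low for the GABA receptor gene Gabra5 (2.17), and vehicle PS 4 was high for Spata46 (1.86) and low for Ptn (6.45). Cypermethrin PS 3 was low for Lhx6 (7.67), and vehicle NS 4 was low for Ndufs3 (4.83).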

How the results depend on the processing

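No paired analysis was possible because the labels hold no replicate numbers and those used here follow accession order. In all 29 alternative fits of the stress main effect 0 genes were called (smallest adjusted p = 0.105, Pisd-ps3 with DESeq2). Genes at an unadjusted p under 0.05 numbered 621, and 1335 of 18733 without a filter, 383 within library code a and 378 within code b, and 519 to 735 with 1 library left out. Of those genes 47.7% were higher in PS libraries, against 58.0% within code a and 61.3% without the library labelled vehicle PS 1 and cypermethrin NS libraries 3 and 4, an alternative added after seeing the data. In vehicle dams the count of 672 was 447 without the library labelled vehicle PS 1 and 1045 without vehicle PS 4, and in cypermethrin dams that of 570 was 363 without cypermethrin PS 1. In each of these fits 0 were called, and none was called for the interaction.

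The 24 leading genes kept their sign in each alternative, which their choice favours, but not their size. With limma voom and quality weights 19 of the 24 differences were over 1.5 times smaller, among them Pcdhb17 (0.24), Mgat4b (0.40), Fibcd1 (1.65), Ica1 (-0.48), Lrr1 (-1.03), Egln3 (-1.44) and Snapc3 (-0.36), and the median ratio to the edgeR value was 0.51. Without the 3 libraries that stand apart 10 of the 24 were, 2 higher and 8 lower genes, among them Cpeb1 (-0.76). DESeq2, RLE and upper-quartile scaling moved none of the 24 that far. Another 13 named genes had an unadjusted p under 0.05 by edgeR. With limma voom and quality weights 11 of the 13 were over 1.5 times smaller, with a median ratio of 0.40. Mcm4 (0.42) and Ndufs3 (-0.44) were among them. Agps and Rbmx, named after their values were seen, had -0.31 and -0.24 in that fit. Without the 3 libraries that stand apart 5 of the 13 were that much smaller. Of 2715 values of 94 genes, 82 had the opposite sign, over 24 genes whose differences had intervals that include 0. With 1 library left out the log2 difference ran from -0.24 to 0.33 for Btg2, -0.040 to 0.078 for Dcx, -0.025 to 0.59 for Ddit4, -0.060 to 0.64 for Egr1, -0.20 to 0.026 for Fkbp5, -0.23 to 0.19 for Gad1, -0.18 to 0.0092 for Gad2, -0.19 to 0.020 for Hspa8, -0.037 to 0.78 for Ier2, -0.20 to 0.10 for Jun, -0.38 to 0.22 for Klf9, -0.68 to 0.20 for Nr3c1, -0.24 to 0.24 for Sgk1, -0.27 to 1.53 for Slc4a1 and -0.40 to 0.11 for Zbtb16. With limma voom the signs turned for Fkbp5 (0.070), Gad1 (0.054), Gad2 (0.17), Jun (0.082), Klf9 (0.45), Neurod1 (-0.098), Pdgfra (0.13), Sgk1 (0.18), Trp73 (0.057) and Zbtb16 (0.44), and with the library code as a term for Gad1 (0.053). Within code a they turned for Btg2 (-0.053), Ctss (-2.27), Dlx2 (-0.23), Fkbp5 (0.23), Gad1 (0.49), Hspa8 (0.20), Klf9 (0.040), Mfsd2a (-0.13), Nr3c1 (0.74), Rps19 (0.19) and Sqstm1 (-0.11). Within code b they turned for Dcx (-0.022), Egr1 (-0.17), Gad2 (0.10), Hspa5 (-0.028), Ier2 (-0.37), Sgk1 (0.17) and Slc4a1 (-0.56). Without the 3 libraries that stand apart they turned for Dcx (-0.0014), Gad1 (0.040), Gad2 (0.25), Klf9 (0.16), Trp73 (0.025) and Zbtb16 (0.035). The cause was not tested. For genes whose interval reaches past 2-fold the data do not settle a 2-fold difference at this depth and number of litters.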
